A study of Mus musculus with 16 samples.

Results

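ADP-ribosylation factors (ARFs) and their regulators were examined as a group of 10 genes in microglia of the mouse olfactory bulb. The group holds the ARF GTPase genes Arf1, Arf3, Arf4, Arf5 and Arf6, the exchange factor genes Cyth1, Cyth4 and Psd4, the GTPase-activating protein gene Acap2, and Gm9887, a long noncoding RNA gene that overlaps Arf6 on the other strand. The genes were taken by symbol from a table of 57010 genes, and all 10 were among the 18227 genes with enough counts to be tested. They were selected on measured values, namely with the genotype differences of these same libraries in view, so their genotype differences, over both sexes and within each, are given below as a description: the text says which genes met the limits for a call, gives no p-value for these differences and supports nothing with them. Sex, the replicate numbers and the difference of the genotype effect between the sexes had no part in the choice and were tested.

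Total RNA was sequenced, with a kit that keeps strand, from microglia of WT mice and of APP-NL-G-F mice, all 2 months old, in 16 libraries, with 4 libraries from each sex of each genotype. WT mice were C57BL/6 J, bought from the Jackson Laboratory per the study's methods, and the other lines were kept on that background. The sources used here do not say that the WT and APP-NL-G-F mice were littermates. A difference of genotype and one of colony therefore cannot be told apart. APP-NL-G-F mice carry an App gene with a humanised amyloid sequence and the disease-linked Swedish, Arctic and Iberian changes (NL, G and F) in its own place in the genome, in all cells and not in microglia alone. Cells were enriched with CD11b beads, which bind all myeloid cells, and the labels do not say how many animals went into a library, so the error given here is the spread between libraries. In bulk RNA, fewer cells of a type and less RNA per cell cannot be told apart.

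Each library had between 9052932 and 18117286 counts, and levels are given as CPM, the counts scaled to the same library total. The labelled sexes matched the counts of Xist, the RNA of the inactive X chromosome, which was at least 547.4 CPM in every female and at most 0.448 CPM in every male library. Counts per gene do not show the knock-in itself, and the CPM of App was 419.2 ± 34.4 for WT against 399.1 ± 12.7 for APP-NL-G-F mice (SD, n = 8 per genotype). The summed level of 12 microglia markers ran from 20020 to 23730 CPM for WT and from 20080 to 23440 CPM for APP-NL-G-F mice, and each of the 12 was detected, the lowest, Aif1, at a mean of 272 CPM.

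ARF proteins are small GTPases that switch between a GDP-bound and a GTP-bound form and, when bound to GTP, recruit coats and lipid-modifying enzymes to membranes. Exchange factors load them with GTP, and GTPase-activating proteins return them to the GDP-bound form. Arf1, Arf3, Arf4 and Arf5 act mainly at the Golgi apparatus and the early secretory pathway, where they recruit the COPI coat. Arf6 acts at the plasma membrane and on endosomes, where it is known for membrane recycling, for actin remodelling and, in macrophages, for delivering membrane to the forming phagosome.

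The results turned on Arf6 and Gm9887. Arf6 (ENSMUSG00000044147) is located on the plus strand of chromosome 12 (GRCm39, 69418826 to 69420557) and is annotated with 1 transcript of 2 exons, the coding sequence lying within the second. Gm9887 (ENSMUSG00000052673) runs on the minus strand from 69417258 to 69419242 as a single exon block. The genes overlap over 417 bases, of which 317 are exonic in both. The shared bases are 19.4% of the Arf6 exons and belong to its first exon and the start of the second, ahead of the coding sequence. The annotated start of Arf6 thus lies within the exon of Gm9887. A further long noncoding RNA gene, Gm61486, spans both genes on the plus strand in the annotation used here. Its exons overlap those of neither gene, and its level was not examined.

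The other genes of the group lie elsewhere in the genome. Arf1 (ENSMUSG00000048076) is on chromosome 11 from 59102232 to 59119259 and Cyth1 (ENSMUSG00000017132) on the same chromosome from 118022845 to 118139485, both on the minus strand. Chromosome 15 holds Arf3 (ENSMUSG00000051853, 98629499 to 98661682, minus) and Cyth4 (ENSMUSG00000018008, 78476060 to 78506228, plus). Arf4 (ENSMUSG00000021877) is on the plus strand of chromosome 14 from 26359168 to 26386239 and Arf5 (ENSMUSG00000020440) on that of chromosome 6 from 28423545 to 28426607. Psd4 (ENSMUSG00000026979) is on the plus strand of chromosome 2 from 24257592 to 24304966 and Acap2 (ENSMUSG00000049076) on the minus strand of chromosome 16 from 30911227 to 31020083. Exons of a gene on the opposite strand covered 28.2% of the Arf4 exons (Pde12), 20.9% of those of Arf5 (Gcc1) and 17.6% of those of Arf1 (2310033P09Rik). The ARF GTPases are also close in sequence, and how reads shared between such paralogs were counted is not given in the sources used here, so their separate levels are uncertain to that extent.

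**Figure D1:**
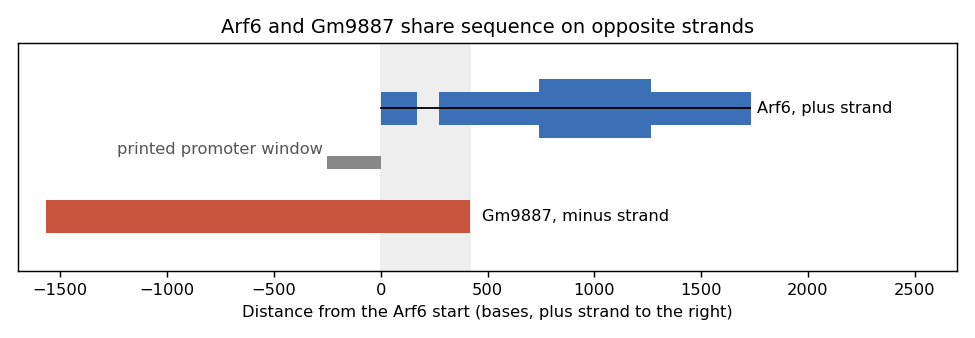
Arrangement of Arf6 (blue, taller part: coding sequence) and Gm9887 (red) by distance in bases from the Arf6 start, with the promoter window printed in the text in grey. The shaded stretch of 417 bases is annotated to both genes.

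The 250 bases ahead of the Arf6 start are shown because Arf6 and Gm9887 were both lower in APP-NL-G-F libraries and because this window is Arf6 promoter and Gm9887 exon at once. It was read from the GRCm39 genome at chr12:69418576-69418825 on the plus strand, 5′ to 3′, and capitals mark matches to the GC box and to the CRE half-site.

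Arf6 promoter window: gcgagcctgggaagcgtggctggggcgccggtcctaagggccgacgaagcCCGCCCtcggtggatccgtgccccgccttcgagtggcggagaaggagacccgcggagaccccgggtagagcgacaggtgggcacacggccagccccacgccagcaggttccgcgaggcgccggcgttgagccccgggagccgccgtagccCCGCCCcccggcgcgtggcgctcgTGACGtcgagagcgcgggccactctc

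In this window 76% of the bases were G or C, against a median of 51.2% over the same window of 21747 protein-coding genes, and it held 36 CpG dinucleotides against a median of 6. Motifs were searched by their letters on both strands. The GC box GGGCGG matched at 2 places, both read on the minus strand, 200 and 50 bases ahead of the start, and was present in 29.9% of all promoters. The CRE half-site TGACG matched once, 26 bases ahead of the start, and was present in 16.3% of promoters, while the full CRE TGACGTCA was not in the window (1.31% of promoters). It overlaps none of the GC box matches. The AP-1 site TGANTCA (6.46% of promoters), the CArG box (1.41%), the EGR site GCGNGGGCG (3.35%), the E-box CACGTG (5.69%) and the TATA box TATAAA (12.5%) had no match in these 250 bases.

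Levels were compared between genes per length, as CPM divided by the length of all exons in kilobases (RPKM). Cyth4, which codes for a cytohesin found mainly in blood and immune cells, had the highest level of the 10 genes, at 71.8 ± 3.5 RPKM over all libraries (SD, n = 16). Arf1 followed at 62.7 ± 4.9 RPKM. The ranges of Cyth4 and Arf1 overlapped, although Cyth4 was higher within each of the 16 libraries, by between 1.01 and 1.37 times.

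Acap2, a GTPase-activating protein for Arf6, stood at 35.1 ± 1.62 RPKM. Arf6 itself averaged 31.1 RPKM over the 16 libraries but covered the range from 17.4 to 47.2 RPKM. The order of Acap2 and Arf6 went with genotype, Acap2 being the higher in 1 of the 8 WT libraries and in 8 of the 8 APP-NL-G-F libraries. Arf4 (20.2 ± 3.73 RPKM) was below Arf6 in every library, by as little as 1.03 times.

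Arf5 (13.3 ± 1.13 RPKM) and Arf3 (11.96 ± 0.679 RPKM) overlapped in their ranges, Arf5 being higher in 13 of 16 libraries. The exchange factors Cyth1 (7.26 ± 0.637 RPKM) and Psd4 (4.82 ± 0.394 RPKM) did not overlap each other. Gm9887 was lowest at 1.95 RPKM, with a range of 0.781 to 3.2 RPKM. Taken per length of the longest transcript in place of all exons, the order of the 10 genes was the same.

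**Figure D2:**
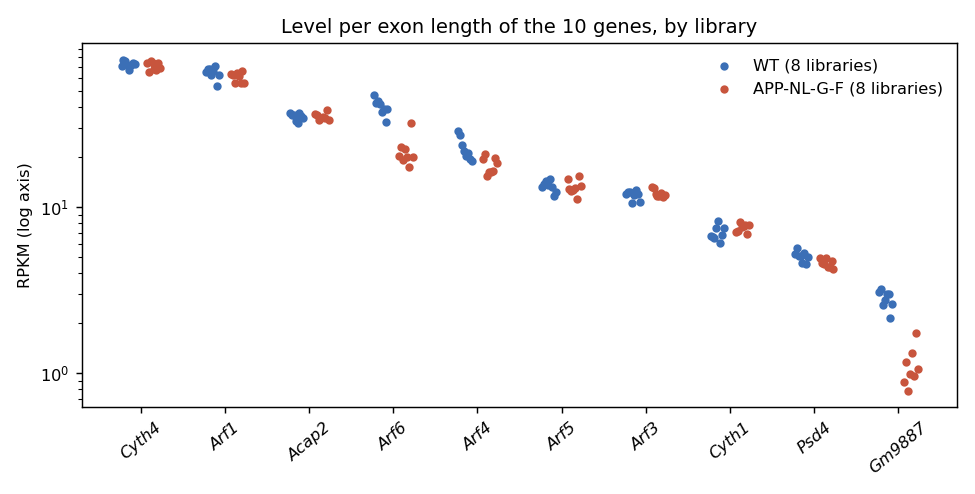
RPKM on a log axis for each of the 10 genes, with 1 point per library, WT in blue and APP-NL-G-F in red. Arf6 and Gm9887 are the genes whose blue and red points lie apart, while the points of Cyth4, Arf1 and Acap2 lie over each other.

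The variation between libraries was uneven over the group. The coefficient of variation of the CPM values over all 16 libraries was 4.61% for Acap2, 4.88% for Cyth4 and 5.68% for Arf3, but 18.4% for Arf4, 33.9% for Arf6 and 47.3% for Gm9887. Within WT libraries alone that of Arf6 was 10.9% and that of Gm9887 12.4%, while Arf4 kept 15.9%.

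Genotype was compared over both sexes in edgeR's quasi-likelihood fit of all 18227 genes with sex as a term, and a call needed both a Benjamini-Hochberg false discovery rate (FDR) under 0.1 and a log2 fold change of more than 0.5 in size. Of the 10 genes, 2 were called, Arf6 and Gm9887, both lower in APP-NL-G-F microglia. Over all tested genes 8.64% were called, 4.33% higher and 4.3% lower. Since these genes were grouped with this contrast known, nothing is read from that count.

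Arf6 measured 77.1, 69.5, 71.5 and 67.8 CPM in the 4 WT female libraries and 33, 37.7, 31.4 and 36.4 CPM in the APP-NL-G-F female libraries, in the order of their replicate numbers. In males it measured 61, 64, 53.4 and 63.9 CPM in WT and 32.7, 28.5, 52.7 and 32.7 CPM in the APP-NL-G-F libraries. All 8 APP-NL-G-F libraries were below the lowest WT library, but APP-NL-G-F male replicate 3, at 52.72 CPM, lay just under WT male replicate 3, at 53.35 CPM. The genotype means were 66 ± 7.18 and 35.6 ± 7.47 CPM (SD, n = 8 each), which is a log2 fold change of -0.89 (standard error 0.101) or a difference of -46%.

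Gm9887 had few counts, from 18 to 106 in a library. It measured 6.13, 6.36, 5.07 and 5.47 CPM in WT females and 1.74, 2.31, 1.55 and 1.95 CPM in APP-NL-G-F females. The male libraries had 5.91, 5.96, 4.26 and 5.18 CPM in WT and 2.64, 1.9, 3.44 and 2.11 CPM in APP-NL-G-F mice. The genotypes did not overlap for this gene either, and the highest APP-NL-G-F library was again male replicate 3. Its log2 fold change was -1.34 (standard error 0.148), a difference of -60.5%.

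Among all tested genes, 1.29% had no overlap between the 8 libraries of each genotype, and 1.15% were wholly lower in APP-NL-G-F libraries. Arf6 and Gm9887 were the members of the group for which this held, and given how the group was chosen nothing is read from it.

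For every 100 Arf6 counts there were 8.42 ± 0.874 Gm9887 counts for WT and 6.18 ± 1.01 for APP-NL-G-F mice (SD, n = 8 per genotype). The lowest WT value, 7.09, lay within the APP-NL-G-F range of 4.95 to 8.07. Although the kit keeps strand, which strand setting was used for counting is not given in the sources used here, so reads of the shared 417 bases cannot be assigned to either gene with certainty.

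Arf4, a Golgi ARF, measured 143, 136, 118 and 108 CPM in WT females and 97.9, 104, 77.4 and 81.7 CPM in APP-NL-G-F females. In males the values were 102, 106, 97.1 and 94.5 CPM in WT and 81.1, 82.8, 98.8 and 91.7 CPM in the APP-NL-G-F libraries. The female genotypes did not overlap, whereas the male ones did. How many of all tested genes separate 4 against 4 libraries was not counted, so nothing is read from this. Over both sexes 5 of the 8 APP-NL-G-F libraries were below every WT library. The log2 fold change over both sexes was -0.33 (standard error 0.0782), under the size required for a call but within the FDR limit.

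Psd4, an exchange factor of the EFA6 family that acts on Arf6, stood at 64.9, 70.3, 63.1 and 62.8 CPM in WT females and 61.1, 57.3, 56 and 60.9 CPM in APP-NL-G-F females. Its male values were 57, 65.3, 56.5 and 62 CPM in WT and 53.7, 53.9, 58.5 and 52.8 CPM in the APP-NL-G-F libraries. All 8 APP-NL-G-F libraries were below the WT median of 62.95 CPM, and 4 were below every WT library. The log2 fold change was -0.14 (standard error 0.0429), a difference of -9.52% that was within the FDR limit and far from the required size.

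**Figure D3:**
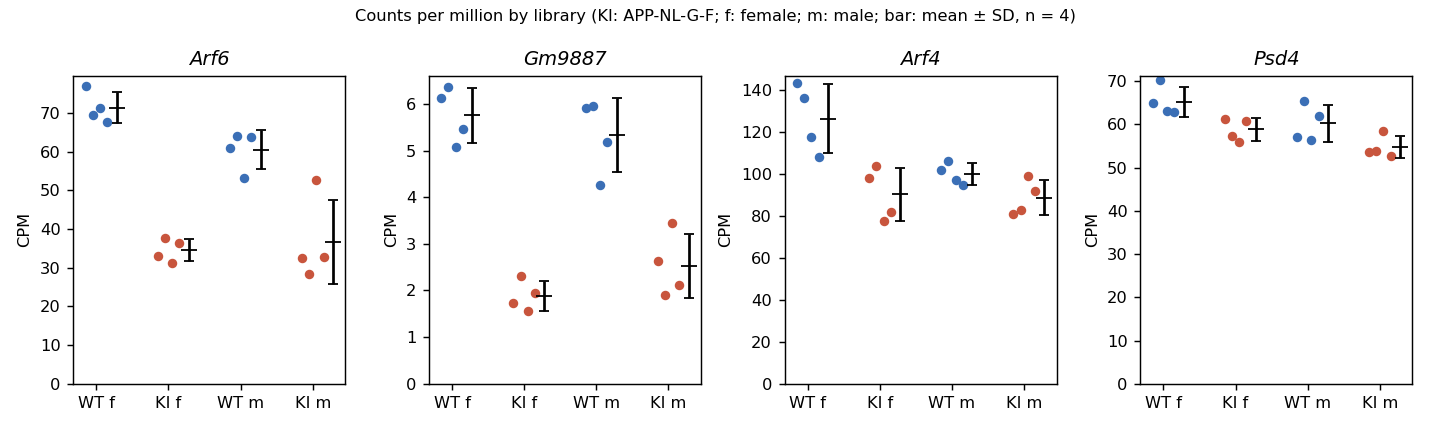
CPM of Arf6, Gm9887, Arf4 and Psd4 in each library by sex and genotype (KI: APP-NL-G-F), 4 points per group with the mean and SD beside them. APP-NL-G-F male replicate 3 is the raised point of Arf6 (52.7 CPM) and of Gm9887 (3.44 CPM) in its group.

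With the FDR alone, without a required size, 4 of the 10 genes were counted, all lower, against 14.8% of all tested genes in either direction and 7.82% in the lower direction. Because of how the 10 were chosen, nothing is read from this count either. The other 6 genes differed little. Arf1 ranged from 229.8 to 302 CPM (median 278) in WT and from 237.4 to 280.2 CPM (median 264.8) in APP-NL-G-F libraries, with a log2 fold change of -0.09 (95% interval from -0.199 to 0.024). Arf3 and Arf5 had log2 fold changes of 0.04 (standard error 0.0443) and -0.01 (standard error 0.0651).

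Cyth4 lay between 533.7 and 613.3 CPM in WT and between 520.7 and 602.1 CPM in the APP-NL-G-F libraries, a log2 fold change of -0.04 (standard error 0.0396). Cyth1, the cytohesin first described as a binding partner of a leukocyte integrin, had the largest value in the other direction, at 0.11 (standard error 0.0588), and all 8 APP-NL-G-F libraries were above its WT median. Acap2 had a log2 fold change of 0.01 (standard error 0.0405). The median over the 10 genes was -0.06, and 7 were below 0, against a median of 0.00 and 50.4% below 0 over all tested genes. The 10 were grouped with this contrast known, so nothing is read from that comparison.

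Among the ARFs themselves the balance per length shifted. Arf6 held 25.2% ± 1.33 of the summed RPKM of Arf1 to Arf6 for WT and 16.4% ± 2.12 for APP-NL-G-F mice (SD, n = 8 per genotype). Arf1 held 40.3% ± 1.73 and 45.9% ± 1.65. Shares sum to a fixed total, so the share of Arf1 rises when that of Arf6 falls even though the CPM of Arf1 was not higher in APP-NL-G-F libraries.

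Within each sex the same pair of genes was called. In females Arf6 had a log2 fold change of -1.05 (standard error 0.136) and Gm9887 of -1.60 (standard error 0.199), where 7.15% of all tested genes were called, 4.33% being lower. In males the values were -0.73 (standard error 0.136) and -1.09 (standard error 0.195), where 0.252% were called, 0.165% being lower. Neither gene was called in males without replicate 2 or 4 of the WT males or without replicate 1 or 2 of the APP-NL-G-F males. In these 4 fits the log2 fold change in males was still between -0.707 and -0.626 for Arf6 and between -1.119 and -0.98 for Gm9887, while the calls over all genes went from 46 to between 5 and 10. Without replicate 3 of the APP-NL-G-F males 603 genes were called in males, both of these among them, at -0.95 and -1.271.

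Arf4 had a log2 fold change of -0.48 (standard error 0.1) in females, where it met the FDR limit but not the size limit, and -0.17 (standard error 0.101) in males. It was called in females in 4 fits that left out a library, namely WT female replicate 3 or 4 or APP-NL-G-F female replicate 1 or 2. Psd4 was at -0.15 (standard error 0.0627) in females and -0.14 (standard error 0.0632) in males. The remaining 6 genes stayed between -0.10 and 0.14 in both sexes.

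Other gene lists differed within a sex in the same libraries. In females 14 of 15 immediate early genes, 6 of 8 endothelial markers and 3 of 7 astrocyte markers were called lower, with medians of -1.79, -0.96 and -0.62, and 3 of 13 neuron markers were called higher, with a median of 0.35. In males 0 of the immediate early genes and of the endothelial and astrocyte markers were called by edgeR, with medians of -0.56, 0.65 and 0.14 and an unadjusted p under 0.05 for 7 immediate early genes, 6 endothelial markers and 0 astrocyte markers. All 7 oligodendrocyte markers were above 0 in males, with a median of 0.60 and an unadjusted p under 0.05 for 7, and the neuron markers had a median of 0.26 with an unadjusted p under 0.05 for 6, but 0 markers of either list were called there by edgeR. Over all tested genes 11.7% had an unadjusted p under 0.05 within males in edgeR. The summed oligodendrocyte level was 232.1 to 273.1 CPM in WT males and 311.3 to 412.8 CPM in APP-NL-G-F males, and the endothelial sum was 66.2 to 78.7 CPM and 80.8 to 110.8 CPM, so neither overlapped between the male groups. How many of all tested genes separate between the male groups was not counted. The part of these lists in the within-sex values of Arf6, Gm9887 and Arf4 was not tested.

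Whether the genotype difference differed between the sexes was tested as an interaction in the fit of the 4 groups. Without a size limit, 0 of the 10 genes passed the FDR, the lowest value being that of Arf4 in each tool (0.812 in edgeR, 0.9 in DESeq2 and 0.856 in limma voom), and 1, Arf4, had an unadjusted p under 0.05 in each, against 5.94% of all tested genes in edgeR. Over all tested genes 0.0274% were called. The female minus male difference of the log2 fold change was -0.32 for Arf6 (95% interval from -0.721 to 0.085, edgeR FDR 0.915) and -0.51 for Gm9887 (from -1.09 to 0.08, edgeR FDR 0.9). For Arf4 it was -0.31 (from -0.61 to -0.013, edgeR FDR 0.812). The intervals of Arf6 and Gm9887 include equal effects, while that of Arf4, which is not adjusted for the number of genes, ends short of 0.

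**Figure D4:**
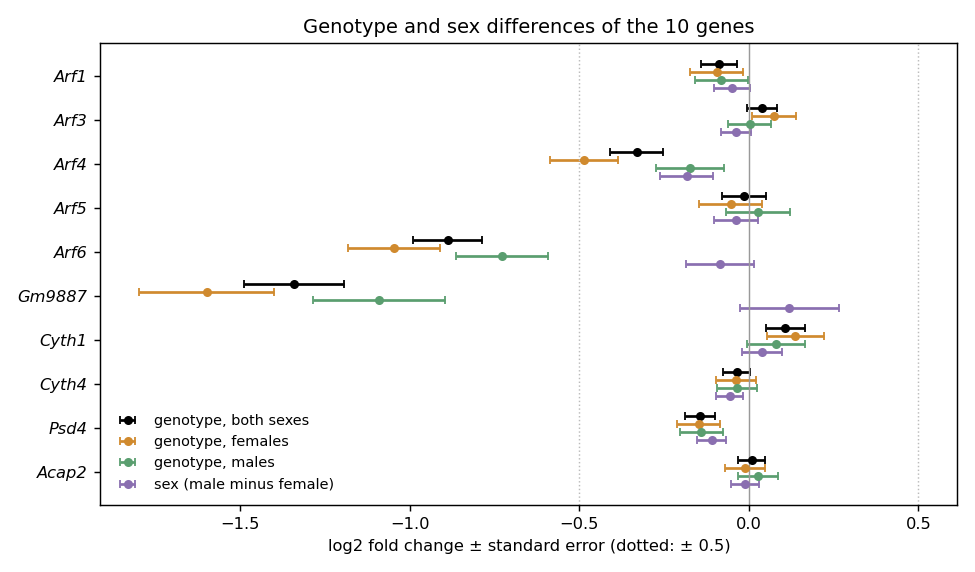
Log2 fold changes with standard errors of the 10 genes for genotype over both sexes, within females, within males, and for sex. Arf6 and Gm9887 lie left of the dotted line at -0.5 in all 3 genotype comparisons and near 0 for sex.

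Sex was a contrast that had no part in choosing the genes. Over both genotypes 0 of the 10 genes were called between males and females by edgeR, DESeq2 or limma voom, against 0.0604% of all tested genes in edgeR, and 2, Arf4 and Psd4, had an unadjusted p under 0.05 in edgeR. DESeq2 gave 1 of the 10 no adjusted value here, and that gene counted as not called. Arf4 averaged 108.2 ± 23.5 CPM in females and 94.2 ± 8.74 CPM in males (SD, n = 8 each), a male minus female log2 fold change of -0.18 (95% interval from -0.347 to -0.019, edgeR FDR 0.746). Its means were 126.3 CPM in WT females and 99.8 CPM in WT males. In APP-NL-G-F females and males they were close, at 90.2 and 88.6 CPM. Psd4 averaged 62 ± 4.46 CPM in females and 57.5 ± 4.36 CPM in males, a log2 fold change of -0.11 (from -0.199 to -0.02, edgeR FDR 0.714). For Arf6 the sex difference was -0.09 (from -0.296 to 0.126, edgeR FDR 0.883). In the same contrast all 8 endothelial markers were below 0, with a median of -0.69 and an unadjusted p under 0.05 in edgeR for 6, and all 15 immediate early genes were below 0, with a median of -0.37 and an unadjusted p under 0.05 for 1, against 6.56% of all tested genes. Their part in the values of Arf4 and Psd4 was not tested.

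Replicate numbers 1 and 2 carry the library names 1 to 8 in the labels and numbers 3 and 4 the names 9 to 16, although the labels do not call these batches. Added as a term, this split called 0.73% of all tested genes in edgeR and 0 of the 10 by edgeR, DESeq2 or limma voom, with 1, Arf3, at an unadjusted p under 0.05 in edgeR. For 1 of the 10 DESeq2 again gave no adjusted value. Arf3 was lower in numbers 3 and 4 by a log2 fold change of -0.09 (95% interval from -0.174 to -0.014, edgeR FDR 0.23). Other lists also differed along this split: the microglia markers had a median of -0.09 with an unadjusted p under 0.05 for 8 of 12, the oligodendrocyte markers one of -0.39 with 5 of 7, and 3 of the 15 immediate early genes were called higher, against 15.5% of all tested genes with an unadjusted p under 0.05 in edgeR. Their part in the value of Arf3 was not tested. The genotype log2 fold change of Arf6 was -1.05 among replicates 1 and 2 alone and -0.75 among replicates 3 and 4 alone, and that of Gm9887 was -1.51 and -1.16. Both genes were called in each of these fits, where 13.5% of all genes were called among replicates 1 and 2 and 0.438% among replicates 3 and 4.

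Arf6 and Gm9887 also moved together apart from genotype and sex. After the 4 group means were removed from the log2 CPM values, their Pearson correlation over the 16 libraries was 0.837 (Spearman 0.809). Gm9887 was number 24 among the 13323 genes compared with Arf6, whose median correlation was 0.09. The points share libraries, depth and the overlapping bases of the genes, so the value is a description.

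The other ARF GTPases followed Arf6 less closely, Arf1 at 0.65, Arf5 at 0.631 and Arf4 at 0.509, while Arf3 stood at -0.095. Of the regulators, Acap2 was at 0.592, Psd4 at 0.52, Cyth4 at 0.139 and Cyth1 at -0.414. Without APP-NL-G-F male replicate 3 these became 0.386 for Acap2, 0.388 for Psd4, -0.228 for Cyth4 and -0.259 for Cyth1, while Arf3 went to -0.02 and Arf5 to 0.433. The Spearman value of Arf5 was 0.429, against 0.632 for Arf1. The values of Cyth4 and Arf3 also moved by over 1.5 times without other libraries, Cyth4 between -0.228 and 0.309 and Arf3 between -0.174 and -0.02, so neither had a settled size. The 5 genes with the pattern most like that of Arf6 were Dnase2a, a lysosomal nuclease (0.955), Col15a1, a collagen (0.901), Hcfc1, a transcriptional coregulator (0.899), Tlr9, the endosomal receptor for unmethylated DNA (0.889), and Tpbgl (0.888). By Spearman correlation Dnase2a was still number 1, but the other 4 were numbers 15, 35, 14 and 89 in the order named, so that only 1 of the 5 stayed among the first 5. Those most like Gm9887 were Mymk (0.89), Ctns, the lysosomal cystine transporter (0.875), Fam3a (0.873), Wdr36 (0.868) and Cdk13 (0.85). The 2 lists of 5 had 0 genes in common.

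Marker lists of other cells were summed in the same libraries. The 13 neuron markers summed to between 652.5 and 1058 CPM for WT and between 810.7 and 1541 CPM for APP-NL-G-F mice, and none of the 13 was at 0 in all libraries. Of the 13, 11 were above 0 between the genotypes, 7 were higher by the FDR alone and 1 was called, Meg3, a noncoding RNA abundant in neurons, with a log2 fold change of 0.73 (standard error 0.202, edgeR FDR 0.0299). Meg3 alone made up 442.3 of the mean sum of 1011 CPM, and the other 12 summed to 410.5 to 568.2 CPM for WT and 509 to 748.2 CPM for APP-NL-G-F mice. The lowest APP-NL-G-F value, 810.7 CPM, belonged to male replicate 3, the library with the most Arf6 in its genotype. That library differed in other lists too, with the highest sum of monocyte and neutrophil markers of all 16, 43.74 CPM. For correlations a list was taken as the mean log2 CPM of its tested genes, each counting equally, and not as the sum. Apart from the group means the neuron list taken this way was correlated with Arf6 at -0.734 and with Gm9887 at -0.795 over the 16 libraries. How far such list correlations rest on single libraries was not tested.

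The 15 immediate early genes, which rise within minutes of cell handling or stimulation, summed to between 7389 and 17110 CPM for WT and between 3257 and 7676 CPM for APP-NL-G-F mice, and 14 of them were called lower. Apart from the group means, and taken as the neuron list was, they were correlated with Arf6 at 0.537 and with Gm9887 at 0.315. In the same measure the microglia list was at 0.505 and 0.498, and the blood myeloid list (monocyte and neutrophil markers, 5 of 7 tested) at 0.575 and 0.572. The astrocyte, oligodendrocyte, endothelial and border macrophage lists lay between -0.35 and 0.08 with Arf6 and between -0.3 and 0.225 with Gm9887. All 7 oligodendrocyte markers were above 0 between the genotypes, with a median of 0.38, 3 higher by the FDR alone and Mog, a myelin protein gene, called higher at 0.77 (standard error 0.219, edgeR FDR 0.0335), while their summed levels overlapped over both sexes. The astrocyte, endothelial, border macrophage and blood myeloid lists overlapped in their summed levels and had 0 genes called over both sexes by edgeR, with an unadjusted p under 0.05 for 0 genes of the last 3 lists. The astrocyte marker Gfap was lower by the FDR alone, at -0.43 (standard error 0.141, edgeR FDR 0.0651). The part of the neuron, immediate early and other lists in the difference of Arf6 and Gm9887 was not tested.

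The wider pathway was read from lists of 84 further genes that do not belong to the 10, of which 82 were tested. Acap1 and Arl14, with at most 8 and 3 counts in a library, were not. None of the 82 was called between the genotypes by edgeR, DESeq2 or limma voom, while 22 had an unadjusted p under 0.05 in edgeR, as had 24.1% of all tested genes. By the FDR alone 11 were counted, 8 lower and 3 higher, which is 13.4% against the 14.8% of all tested genes. Their median log2 fold change was -0.01 and that of all tested genes 0.00.

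Of the remaining ARF GTPase genes, Arf2 had a log2 fold change of -0.17 (standard error 0.0473, edgeR FDR 0.0296) and Trim23, which carries an ARF domain, of 0.14 (standard error 0.0585, edgeR FDR 0.149). Among 12 further exchange factors, 2 were higher and 1 lower by the FDR alone. The higher ones were Arfgef3 (0.44, standard error 0.154, edgeR FDR 0.0777) and Psd, an exchange factor abundant in neurons (0.33, standard error 0.117, edgeR FDR 0.0837). The lower one was Cyth2 (-0.26, standard error 0.083, edgeR FDR 0.0569), which was the most abundant of the 12 per length of all exons, at 9.52 RPKM, but came after Arfgef1, Gbf1 and Cyth3 per length of the longest transcript.

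Of 21 further GTPase-activating proteins, 3 were lower and 1 higher by the FDR alone. The most abundant were Smap2, at 116 RPKM, and Adap2, at 50.4 RPKM. Smap2 was above all 10 genes of the group per length of all exons, but below Cyth4 per length of the longest transcript (140.3 against 153.8 RPKM). Smap2 had a log2 fold change of -0.12 (standard error 0.0448, edgeR FDR 0.104) and Adap2 of -0.14 (standard error 0.0478, edgeR FDR 0.0669). Git2, which binds the paxillin adhesion protein, was lower at -0.18 (standard error 0.0487, edgeR FDR 0.0287), as was Arap1 at -0.14 (edgeR FDR 0.0326), and Agap2 was the higher one at 0.28 (edgeR FDR 0.0683).

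Among 18 ARF effectors 1 was counted by the FDR alone, Gga1, a Golgi coat adaptor, at -0.11 (edgeR FDR 0.0971). Pip5k1c, which makes the membrane lipid phosphatidylinositol bisphosphate, and Spag9, a scaffold that binds Arf6, were the most abundant effectors per length of all exons (Pld1 was above Spag9 per longest transcript), with log2 fold changes of 0.00 (95% interval from -0.08 to 0.081) and 0.03 (from -0.037 to 0.103). All 9 subunits of the COPI coat were below 0 with a median of -0.02, and 0 had an unadjusted p under 0.05 in edgeR. Copa and Copb2, the most abundant of them per length of all exons (Arcn1 was above Copb2 per longest transcript), were at -0.02 and -0.01.

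Of the 20 tested ARF-like GTPases 2 were lower by the FDR alone, both by less than the required size. Arl5c had a larger value than either, -0.494 (95% interval from -0.909 to -0.08), but was outside the FDR limit (edgeR FDR 0.127). Arl4c, which is known for recruiting cytohesins to the plasma membrane, had a log2 fold change of -0.31 (95% interval from -0.453 to -0.171, edgeR FDR 0.00683), and Arl8a, which places lysosomes within the cell, of -0.17 (edgeR FDR 0.0868). Arl8b, the paralog of Arl8a and among the most abundant of the list, was at -0.06 (edgeR FDR 0.478).

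**Figure D5:**
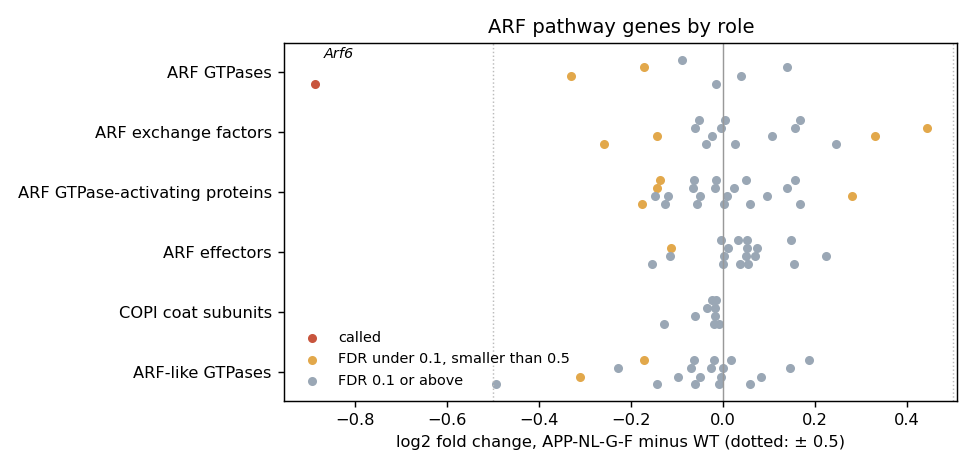
Log2 fold change between the genotypes for every tested gene of the 6 ARF pathway lists, 1 point per gene, coloured by its call. Arf6 is the point left of -0.5, and the 9 COPI subunits lie just below 0.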

How the data were processed

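Per the labels and the study's methods, the authors mapped the reads of each library with STAR to GRCm39, using gencode vM32 extended by the human App gene, and deposited the raw counts of each gene. The strand column and the treatment of reads shared between paralogs are not given in the sources used here. Totals of 9052932 to 18117286 counts set the precision, which is lowest for Gm9887, and the spread between libraries may be technical.

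R 4.3.3, edgeR 4.0.16, limma 3.58.1 and DESeq2 1.42.0 were used. A gene was tested where 50% or more of the libraries had 5 or more counts. CPM used TMM-scaled library totals, and correlations used log2 CPM (prior count 2). Single genes entered them with a mean of at least 1, and marker lists with all their tested genes. A second fit, with 1 mean for each of the 4 groups, gave the within-sex contrasts and the interaction. Errors were derived from the F statistic, and 95% intervals from the t distribution. Exons, positions and promoters came from gencode vM39 on the same build and not from vM32.

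The 10 genes, the lists and the rule for named genes were chosen with earlier results of these data known. Named are the 10, every called pathway gene, the 2 most abundant per list per length, and the 5 genes most correlated with Arf6 or Gm9887. Further pathway genes within the FDR limit, and Trim23 and Arl5c, were picked after their values were seen. Alternatives were RLE and upper-quartile scaling, 2 other count filters, DESeq2, limma voom, an FDR of 0.05, no size threshold, no sex term, a replicate block, replicates 1 and 2 or 3 and 4 alone, longest transcripts, Spearman correlation, and leaving out each library. The genotype test was tested on simulated data for 18227 genes, 200 of them changed: it recovered 62.7% of log2 changes of 0.6, 82.8% of 1 and 100% of 2, with 5.92% of calls false, and called 0 genes in data without changes.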

Additional observations from a re-analysis of the deposited data

Results flagged for a closer look

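Of 40 groups of 4 libraries, 10 genes in each of 4 groups, 2 had their highest or lowest library set apart under Dixon's 95% critical value, and chance gives about 2. Cyth1 was lowest in APP-NL-G-F male replicate 3, at 56.08 CPM against 63.28 CPM in the nearest library of its group, with the gap at 0.887 of the range. The same library had the most Arf6 and Gm9887 of its genotype, at 52.72 and 3.442 CPM. Cyth1 was also highest in WT female replicate 4, at 61.52 CPM against 54.79 CPM, with the gap at 0.843 of the range. No member passed the FDR in the test of the genotype difference between the sexes.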

How the results depend on the processing

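Arf6 and Gm9887 were called between the genotypes over both sexes under all 12 other settings and in all 16 fits that left out a library, with log2 fold changes from -1.05 to -0.75 and from -1.51 to -1.16 over the settings and, with a library left out, from -0.994 to -0.844 and from -1.439 to -1.285. The genes were chosen with this contrast in view and the fits share libraries, so nothing is read from these counts. Over all genes the settings called from 80 of 18282 (replicates 3 and 4 alone) to 2692 of 18227 (FDR alone). With the FDR alone 4 of the 10 genes were counted, and 11 of the other pathway genes. The replicate numbers did not pair the libraries: the mean correlation of the deviations of same-numbered libraries was between -0.019 and 0.073 over the 4 numbers. With the replicate number as a block, 2 of the 10 genes were called, Arf6 at -0.89 and Gm9887 at -1.335, and 1 other pathway gene, Arl5c, was called. Over all tested genes 1562 of 18227 were called in that fit. Replicates 1 and 2 alone called 3 other pathway genes, Arfgef3, Arl5c and Psd, in a fit that called 13.5% of all tested genes. With a library left out, the number of other pathway genes called was from 0 to 2 (Arfgef3 and Arl5c without APP-NL-G-F male replicate 3), the number of the 10 called in females from 2 to 3 (Arf4 being the added gene), and the number called in males from 0 to 2. Of the 18019 to 18158 genes tested in those fits, 1101 to 2187 were called over both sexes. Within females 594 to 2110 were called and within males 5 to 603. At an FDR of 0.05, 0 of the 10 were called in males, against 8 of all 18227 tested genes. The causes were not tested. Depth limits Gm9887, whose 18 to 106 counts make its values less precise than those of Arf6.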
